A study of Mus musculus with 6 samples.

Results

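Glutathione and NRF2 antioxidant genes were measured in 3 Hspa8 knockout and 3 wild-type kidney samples of mice. The set holds the glutathione S-transferases of the alpha, kappa, mu, omega, pi, theta and zeta classes. It also holds the microsomal glutathione S-transferases (MGST), the glutathione peroxidases (GPX) and 5 genes of glutathione synthesis and recycling (Gclc, Gclm, Gss, Gsr and Ggt1). The NRF2 target genes Nqo1, Hmox1, Txnrd1 and Srxn1, and Nfe2l2 and Keap1 themselves, complete it. Members were matched by gene symbol, and there were 44 of them among the 34714 genes listed. Of these 35 reached a mean of 1 FPKM over the 6 libraries and were tested, and 9 did not.

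All mice were 8 weeks old and ate normal chow, and no kidney came from a diabetic animal. The genotype label of the first group is Hspa8 knockout and that of the second is WT, and the WT titles name the C57 strain. The animals obtained for the series included Hspa8flox/flox mice and Cdh16-Cre mice, in which Cre follows a promoter of kidney tubule epithelium. The labels do not say which alleles each knockout animal carried. They also do not say that each sample is an animal of its own, so p-values here describe the spread between samples, which may be technical. Hspa8 itself, which encodes the chaperone HSC70, stood at 650.1, 699 and 781 FPKM in knockout libraries 1, 2 and 3, against 1058, 1092 and 1318 FPKM in wild-type libraries 1, 2 and 3. The groups did not overlap, and the mean in knockout kidneys was 0.614 times that in wild-type kidneys (exact two-sided permutation p = 0.1, the smallest that 3 against 3 can give). In the limma fit described below its log2 fold change was -0.70 (limma adjusted p = 0.866), so Hspa8 itself was not called. Knockout lay below wild-type without overlap for 8.57% of all tested genes. The unit is FPKM, a level per transcript length and per mapped library total. It keeps no read totals, so the depth is unknown. Gene positions are those of the whole gene in RefSeq's annotation of GRCm38.p6, the build named for the series.

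Glutathione is the main small thiol of the cell, and the proximal tubule makes, secretes, breaks down and takes it up again. The peroxidases use it to reduce hydrogen peroxide and lipid peroxides, and the transferases couple it to reactive compounds that the kidney then excretes. NRF2, the product of Nfe2l2, is a transcription factor that KEAP1 marks for degradation. Oxidants and electrophiles modify KEAP1, NRF2 then builds up and binds antioxidant response elements near many of the other genes of the set.

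No member passed the test for a difference between knockout and wild-type kidneys. With limma on log2(FPKM + 1) and Benjamini-Hochberg adjustment over all 12174 genes tested, 0 of the 35 tested members had an adjusted p under 0.05, against a background of 0.0% of all genes (0 of 12174), and the smallest adjusted p of a member was 0.96. At an unadjusted p under 0.05, 0 members were higher (background 0.953%) and 1 was lower (background 4.21%), Hmox1. The groups did not overlap for 3 members. Knockout was the higher group for 2 of these, Gstp1 and Gstt3 (background 2.01%, 245 genes), and the lower group for 1, Nfe2l2 (background 8.57%, 1043 genes). With library sums equalised the genome-wide split was 443 genes above and 772 below, and with library medians equalised it was 597 above and 621 below. A log2 fold change above 0 was found for 13 of the 35 members (37.1%), beside 35.1% of all tested genes. The median log2 fold change was -0.05 over the members and -0.04 over all genes.

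The intervals show how large a change these libraries could have missed. Ratios of mean FPKM ran from 0.811 (Gsta2) to 1.18 (Gsta3) among tested members. The 95% interval of the log2 fold change lay within 0.5 on either side of 0, a range of 0.707-fold to 1.41-fold, for 28 of the 35 members, and within 1 for all 35. The lowest bound was -0.99, for Gsta1, and the highest was 0.56, for Gsta3. Within a group the members varied about as much as other genes, with a median SD of 0.132 on the log2 scale for the members and 0.132 for all tested genes.

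**Figure D1:**
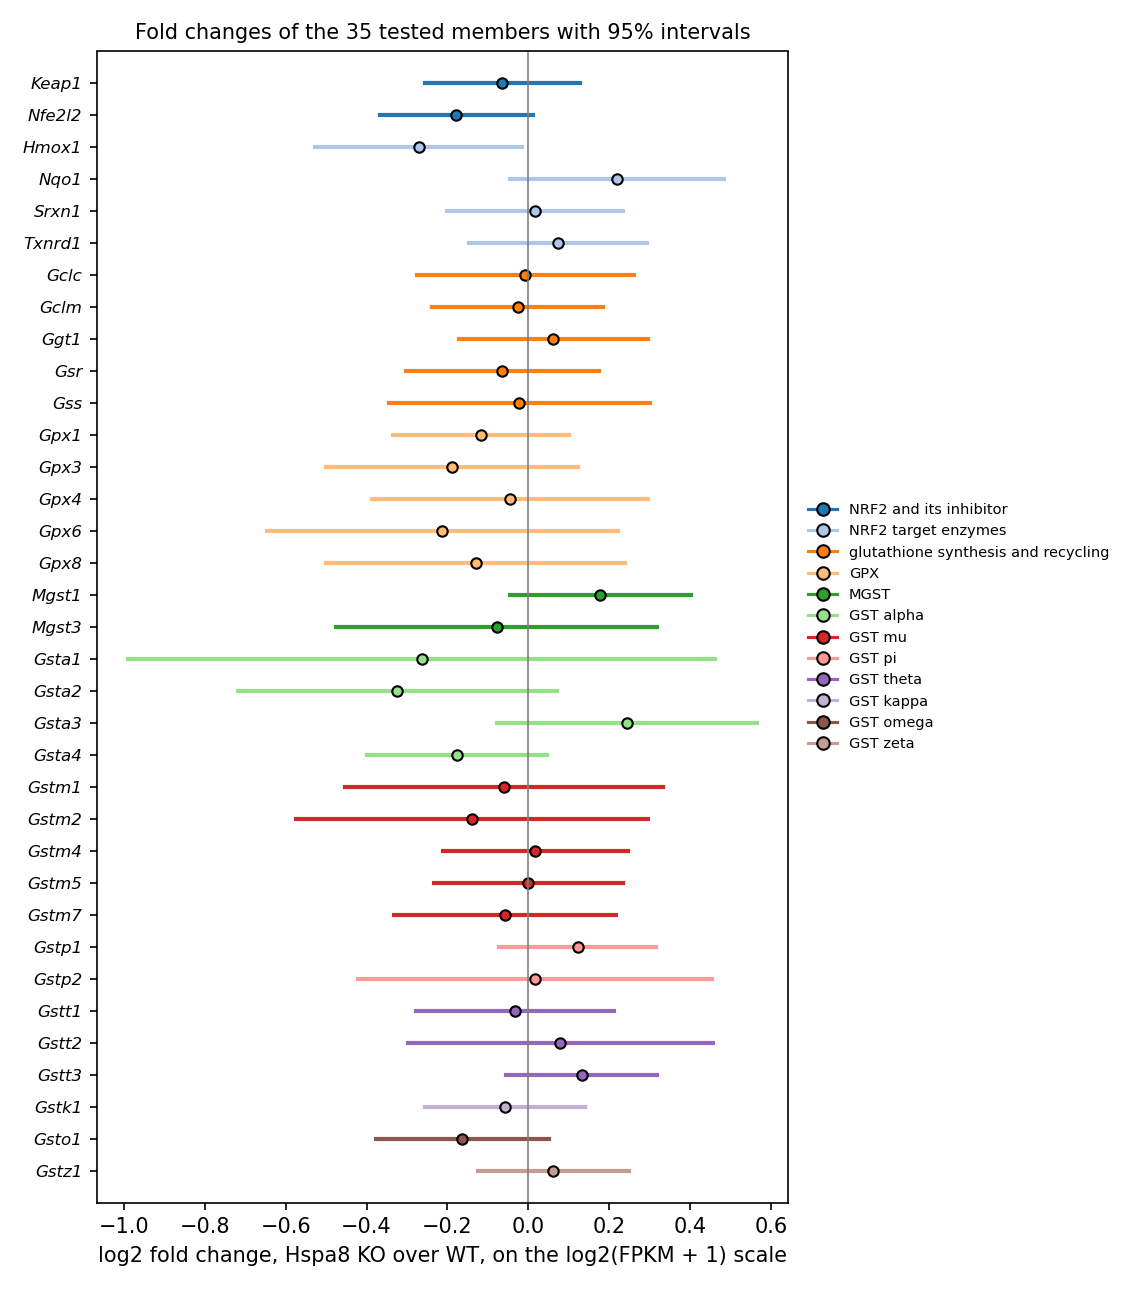
Log2 fold change of each tested member, Hspa8 knockout over wild-type on the log2(FPKM + 1) scale (points), with its 95% interval from limma (lines), coloured by family. The points lie between -0.32 for Gsta2 and 0.24 for Gsta3, and every interval but that of Hmox1 crosses 0.

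Nfe2l2 and Keap1 set the pathway's activity through the stability of the NRF2 protein, which RNA does not show. Nfe2l2 (chromosome 2, 75675513 to 75704663) had 33.4, 34.6 and 35.1 FPKM in knockout libraries 1, 2 and 3, against 41.7, 38.4 and 37.1 FPKM in wild-type libraries 1, 2 and 3. The 3 knockout libraries lay close together and below all 3 wild-type libraries, the 1 member of which that was true. The mean was 34.4 ± 0.841 FPKM in knockout and 39.1 ± 2.34 FPKM in wild-type kidneys (SD, n = 3 each), a log2 fold change of -0.18 ± 0.0822 (SE) (limma adjusted p = 0.973). An exact two-sided permutation test gave p = 0.1, the smallest possible here, and the groups overlapped once library sums were equalised. Keap1 (chromosome 9, 21229730 to 21239332) had 10.5, 11.8 and 11.4 FPKM in knockout libraries 1, 2 and 3, against 12.4, 11.6 and 11.4 FPKM in wild-type libraries 1, 2 and 3. Its groups overlapped, with wild-type replicate 1 highest and knockout replicate 1 lowest, and its log2 fold change was -0.06 with a 95% interval from -0.26 to 0.13.

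The 4 NRF2 target enzymes did not share a direction. Nqo1 (chromosome 8, 107388225 to 107403205), the quinone reductase that is a standard readout of NRF2, had 39.1, 45.7 and 37.2 FPKM in knockout libraries 1, 2 and 3, against 30.6, 35.8 and 38.1 FPKM in wild-type libraries 1, 2 and 3. Wild-type replicate 3 lay above knockout replicate 3, so the groups overlapped, and the log2 fold change was 0.22 ± 0.115 (SE) (limma adjusted p = 0.973). It was 0.13 without knockout replicate 2 and 0.13 without wild-type replicate 1. Its direction was opposite to that of Nfe2l2, and neither passed. Txnrd1, the cytosolic thioredoxin reductase, had 55.9, 57.7 and 62.9 FPKM in knockout libraries 1, 2 and 3, against 61.4, 54.2 and 52.2 FPKM in wild-type libraries 1, 2 and 3. Knockout replicate 3 and wild-type replicate 1 were the highest, and the log2 fold change was 0.07. Srxn1, the sulfiredoxin that restores overoxidised peroxiredoxins, had 21.6, 19.96 and 20.3 FPKM in knockout libraries 1, 2 and 3, against 22.6, 20.2 and 18.5 FPKM in wild-type libraries 1, 2 and 3. All 3 knockout values lay within the wild-type range, with a log2 fold change of 0.02, which was below 0 without knockout replicate 1 and without wild-type replicate 3.

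Hmox1 (chromosome 8, 75093618 to 75100593), the haem oxygenase that degrades haem and is induced by many stresses besides NRF2, had the smallest unadjusted p of the members. It had 17.7, 21.03 and 17.7 FPKM in knockout libraries 1, 2 and 3, against 23.6, 20.1 and 25.1 FPKM in wild-type libraries 1, 2 and 3. Knockout replicate 2 lay above wild-type replicate 2, and the other knockout libraries lay below all wild-type ones. The mean was 18.8 ± 1.92 FPKM in knockout and 22.9 ± 2.55 FPKM in wild-type kidneys (SD, n = 3 each), with a log2 fold change of -0.27, a 95% interval from -0.53 to -0.01 and an unadjusted p of 0.0408 (limma adjusted p = 0.960), and the exact permutation test gave p = 0.2. Macrophages that clear red cells carry Hmox1, and the summed level of 8 leukocyte markers was 125, 178 and 109 FPKM in knockout libraries 1, 2 and 3, against 157, 143 and 195 FPKM in wild-type libraries 1, 2 and 3, Cd74 leading. In each group the library highest in Hmox1 was also the highest in this sum, replicate 2 of the knockout and replicate 3 of the wild-type. Singly, Cd68, C1qa, C1qb, C1qc, Csf1r and Cd74 were highest in these libraries too. Ptprc was highest in replicate 1 of both groups, and Adgre1 in replicate 1 of the wild-type. Knockout replicate 2 and wild-type replicate 3 were the highest of their groups for 31.9% of all tested genes and 51.4% of tested members. All 8 markers had values above 0 FPKM in every library. Of them 7 were tested, and the log2 fold change was above 0 for 1, Cd68 (0.04), and below 0 for 6. The sum of 10 heat shock and immediate early genes was 46.5, 279 and 249.6 FPKM in knockout libraries 1, 2 and 3, against 89.3, 184 and 518 FPKM in wild-type libraries 1, 2 and 3, highest in the same libraries of each group. The part of either in the Hmox1 values was not tested. In whole tissue fewer cells of a type and less RNA per cell cannot be told apart.

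**Figure D2:**
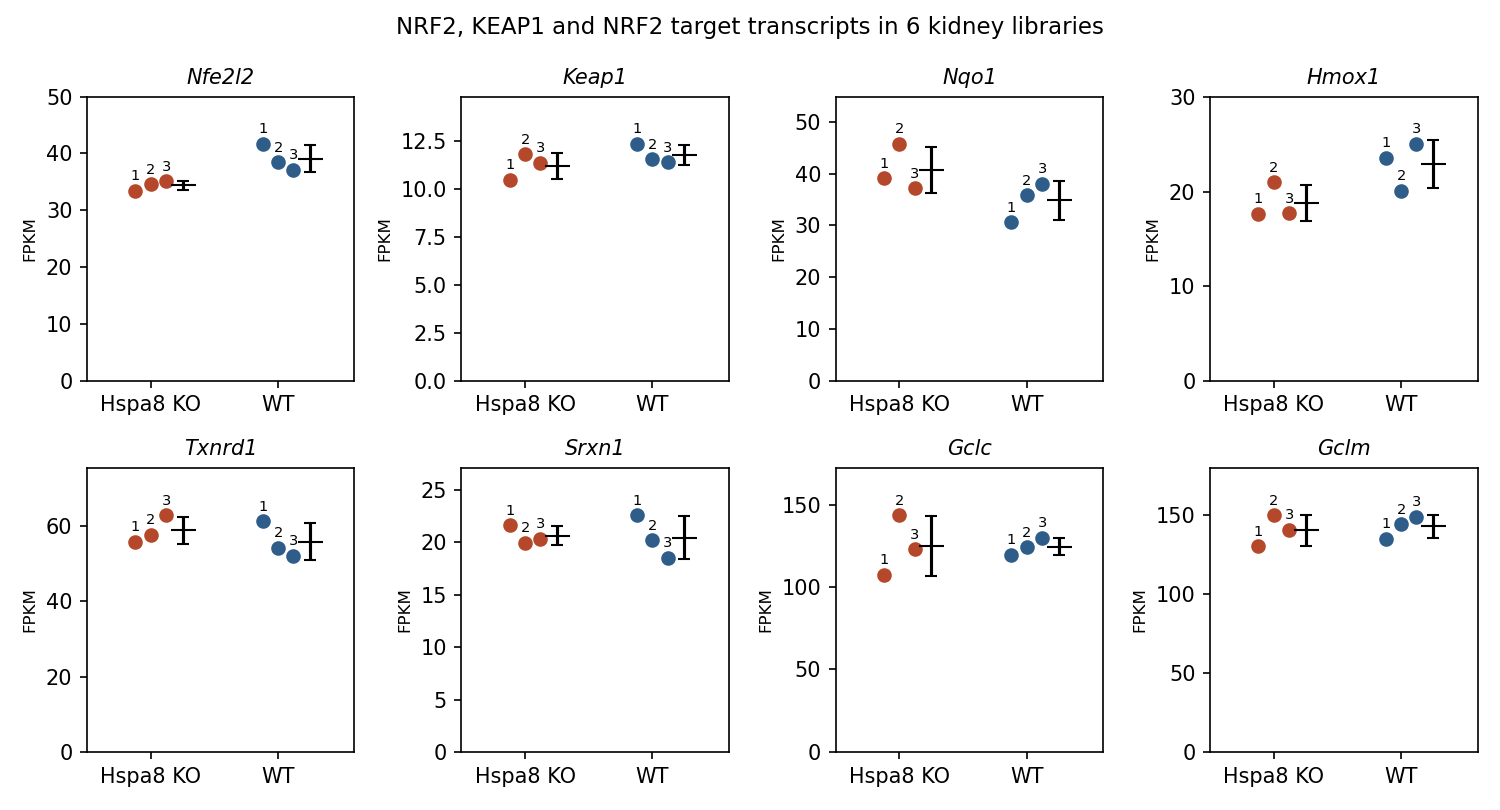
FPKM of Nfe2l2, Keap1, 4 NRF2 target enzymes and both subunits of glutamate-cysteine ligase in each library (points, numbered by replicate), with the mean and SD of each group of 3 (bars), knockout left and wild-type right. For Nfe2l2 the knockout points, from 33.4 to 35.1 FPKM, lie below the wild-type points, from 37.1 to 41.7 FPKM, and in every other panel the groups overlap.

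Promoters of the members were searched for the core of the antioxidant response element, to see which of them carry it close to their start. The core searched was TGACNNNGC, a motif of 9 letters, read on both strands in windows from 250 bases before to 50 bases after each RefSeq start (build GRCm38.p6). Windows were found for 39 of the 44 members, and Gclc, Gsr, Gsta4, Gstt2 and Hmox1 had none. The core was present in 9 of the 39 members (23.1%), beside 14.0% of all 27025 genes with a window and 16.9% of tested genes with one. They were Gclm, Ggt1, Gsta3, Gstm5, Gstm7, Mgst1, Nfe2l2, Srxn1 and Txnrd1. The single form TGACTCAGC stood in 0 of the 56 member windows and in 0.454% of all 32851 windows. The form TGAGTCAGC, with a G in place of the first C, was not part of either search. It stands in the windows of Srxn1, Gstp1 and Gstp2, and its share over all windows was not counted. Elements farther from the start lie outside these windows.

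The stretches around the core are shown for the 7 members whose per-sample values are given here, with 10 bases on either side, in the strand of the gene and 5′ to 3′, and capitals mark the core (GC...TCA where it lies on the other strand). Fewer bases follow where the window ends. The core begins between 240 bases before the start (Nfe2l2) and 41 bases after it (1 of the 3 Ggt1 windows that hold it).
Gclm (chr3:122245413-122245441): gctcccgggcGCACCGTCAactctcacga
Ggt1 (chr10:75564163-75564181): cttgggcatcTGACACAGC
Ggt1 (chr10:75568616-75568644): gaagggaggaGCTGGGTCActgctgggga
Ggt1 (chr10:75571467-75571495): gtcacaagccTGACGCTGCgcctccttgc
Gsta3 (chr1:21240454-21240482): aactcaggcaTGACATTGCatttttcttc
Mgst1 (chr6:138140461-138140489): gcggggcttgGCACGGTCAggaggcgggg
Nfe2l2 (chr2:75704885-75704913): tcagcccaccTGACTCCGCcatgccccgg
Srxn1 (chr2:152105542-152105570): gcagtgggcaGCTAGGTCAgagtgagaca
Txnrd1 (chr10:82859104-82859132): ctggatttttGCTTTGTCAttctgacacg

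The whole promoter window of Nfe2l2 (chr2:75704614-75704913, minus strand), the member that was lower in every knockout library, and that of Gclm (chr3:122245307-122245606, plus strand), a classical NRF2 target whose groups overlapped, are printed for comparison. Capitals mark the core in each.
Nfe2l2: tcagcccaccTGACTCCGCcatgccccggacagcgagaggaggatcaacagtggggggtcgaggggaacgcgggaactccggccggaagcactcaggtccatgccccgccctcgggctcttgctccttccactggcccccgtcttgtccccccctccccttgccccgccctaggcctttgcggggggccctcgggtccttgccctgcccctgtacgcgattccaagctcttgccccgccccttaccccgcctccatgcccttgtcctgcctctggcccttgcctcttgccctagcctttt
Gclm: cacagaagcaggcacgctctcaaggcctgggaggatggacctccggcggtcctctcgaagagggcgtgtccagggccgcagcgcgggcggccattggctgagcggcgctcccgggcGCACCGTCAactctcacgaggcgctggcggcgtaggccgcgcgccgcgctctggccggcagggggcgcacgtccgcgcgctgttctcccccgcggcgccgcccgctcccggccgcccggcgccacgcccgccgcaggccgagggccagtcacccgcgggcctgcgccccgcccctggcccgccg
The core of Nfe2l2 begins 240 bases before the start and that of Gclm 134 bases before it. Among the 9 tested members with a core, the log2 fold change lay above 0 for 6 and below 0 for 3, with a median of 0.02. Among the 21 tested members with a window and no core, it lay above 0 for 6 and below 0 for 15, with a median of -0.06. These are counts of letters in a window, and no test was made of them. Some of the log2 fold changes counted lay near 0 and changed sign with a library left out. Among them were Gstm5 (0.0001) and Srxn1 (0.0166) with a core, and Gss (-0.0223) and Gstp2 (0.0166) without one.

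The groups overlapped for all 3 genes of glutathione synthesis. Gclc (chromosome 9, 77754535 to 77794489), the catalytic subunit of glutamate-cysteine ligase and the rate-limiting enzyme of the pathway, had 107, 144 and 123 FPKM in knockout libraries 1, 2 and 3, against 119.5, 124 and 130.0 FPKM in wild-type libraries 1, 2 and 3. Knockout replicates 1 and 2 were the lowest and the highest of all 6 libraries. Its mean was 125 ± 18.2 FPKM in knockout and 124 ± 5.27 FPKM in wild-type kidneys (SD, n = 3 each), and the 95% interval of the log2 fold change ran from -0.28 to 0.26. Gclm, the modifier subunit, had 130.1, 149.8 and 141 FPKM in knockout libraries 1, 2 and 3, against 135, 144 and 149 FPKM in wild-type libraries 1, 2 and 3. The groups overlapped over most of their range, with an interval from -0.24 to 0.19. Gss, glutathione synthetase, which adds glycine, had 169.7, 228 and 164 FPKM in knockout libraries 1, 2 and 3, against 173, 186 and 206 FPKM in wild-type libraries 1, 2 and 3. Knockout replicate 2 and wild-type replicate 3 were the highest, and the log2 fold change was -0.02. The log2 fold changes of Gclc, Gclm and Gss, -0.01, -0.03 and -0.02, were all above 0 with library sums or medians equalised, so no direction is given for them.

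For the genes of recycling and breakdown, Gsr and Ggt1, the groups overlapped as well. Gsr, the reductase that restores oxidised glutathione, had 63.3, 57.1 and 60.4 FPKM in knockout libraries 1, 2 and 3, against 71.1, 61.9 and 56.8 FPKM in wild-type libraries 1, 2 and 3. All 3 knockout values lay within the wild-type range. Ggt1, the brush border gamma-glutamyl transferase that starts the breakdown of filtered glutathione, was among the 5 most abundant members with 542, 538 and 604 FPKM in knockout libraries 1, 2 and 3, against 581, 537 and 496 FPKM in wild-type libraries 1, 2 and 3. Its groups overlapped, with knockout replicate 3 highest and wild-type replicate 3 lowest, and the log2 fold change was 0.06 with a 95% interval from -0.17 to 0.30.

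The glutathione peroxidases held most of the set's transcript level. Gpx3 (chromosome 11, 54902854 to 54910387), the secreted peroxidase of plasma, which the proximal tubule makes, had 13698, 11576 and 10443 FPKM in knockout libraries 1, 2 and 3, against 12856, 13268 and 14374 FPKM in wild-type libraries 1, 2 and 3. It made up 70.7% to 76.00% of the summed FPKM of the members, and the members together made up 3.84% to 4.59% of the FPKM sum of a library. Knockout replicates 2 and 3 were the lowest of the 6 libraries for Gpx3 and knockout replicate 1 the second highest. The mean was 11906 ± 1652 FPKM in knockout and 13499 ± 785 FPKM in wild-type kidneys (SD, n = 3 each), with a log2 fold change of -0.19 ± 0.135 (SE) (limma adjusted p = 0.998, exact permutation p = 0.3). The log2 fold change was -0.13 with library medians equalised and -0.14 with library sums equalised. With quantiles equalised it was 0.0, the value this scaling gives to any gene of the same rank in every library.

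Gpx1, the cytosolic peroxidase, was second in level with 1150.0, 1238 and 1146 FPKM in knockout libraries 1, 2 and 3, against 1297, 1208 and 1328 FPKM in wild-type libraries 1, 2 and 3. Wild-type replicate 2 lay below knockout replicate 2, and the log2 fold change was -0.12. Gpx4, which reduces lipid peroxides in membranes and restrains ferroptosis, had 515, 678 and 496 FPKM in knockout libraries 1, 2 and 3, against 533, 539 and 663 FPKM in wild-type libraries 1, 2 and 3. Knockout replicate 2 and wild-type replicate 3 stood well above the other 4 libraries, and the interval ran from -0.39 to 0.29. Of the transcript of Gpx4 61.7% of 50-base stretches also occur in its pseudogene Gpx4-ps2, so its level may hold reads of both. All 5 tested peroxidases had a log2 fold change below 0, with a median of -0.13, but that of Gpx4 was 0.01 with library medians equalised. Without wild-type replicate 3 those of Gpx4 and Gpx8 were 0.06 and 0.01, and none of the peroxidases passed. Gpx6 and Gpx8 averaged 24.4 and 9.39 FPKM over the 6 libraries. Gpx7 lay under the limit of 1 FPKM, and Gpx2 and Gpx5 were listed at 0 in every library.

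**Figure D3:**
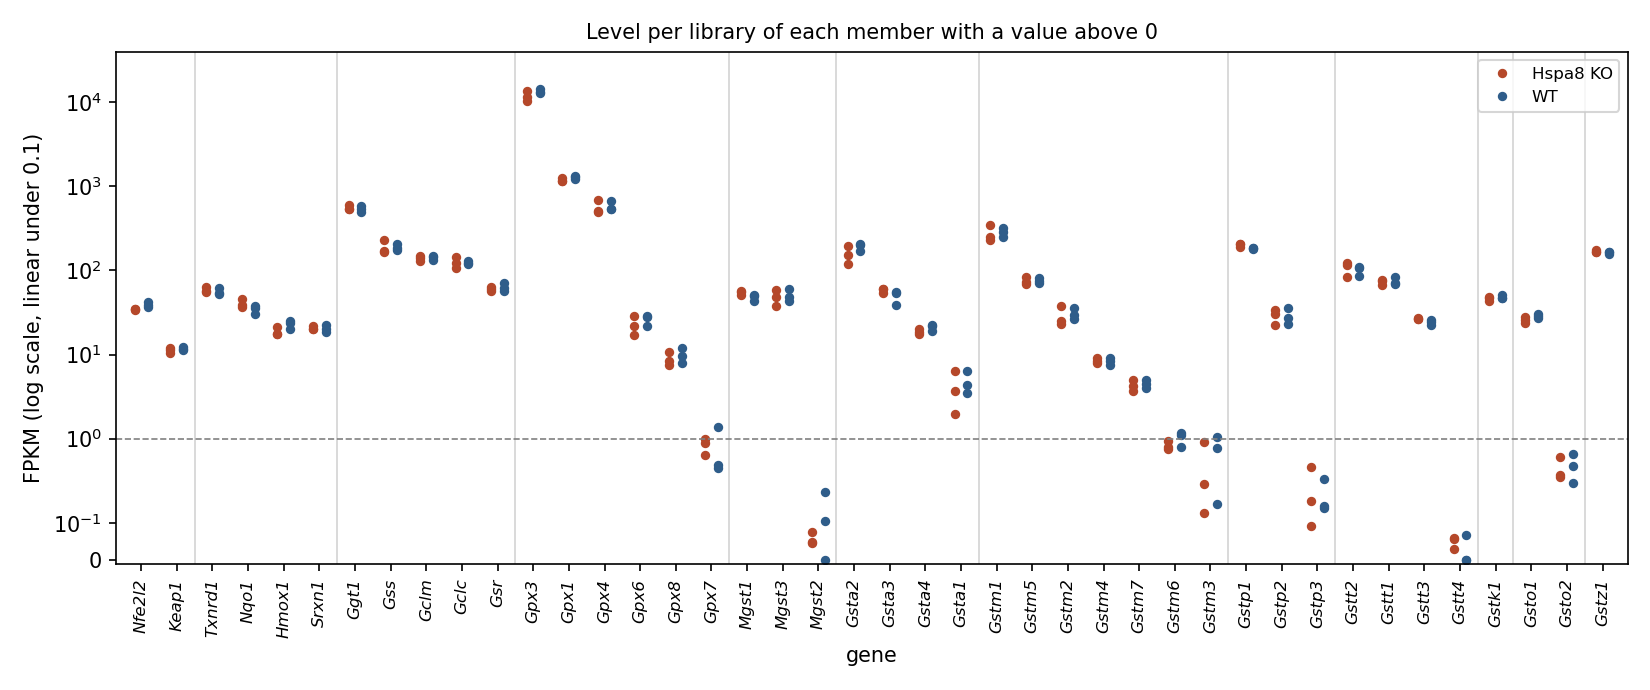
FPKM of each member with a value above 0, one point per library (knockout left, wild-type right), grouped by family and ordered by mean within it, on a log scale that is linear under 0.1. The dashed line is the limit of 1 FPKM, and Gpx3, at 10443 FPKM or more in every library, is the most abundant member.

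Alpha class transferases, which also reduce lipid peroxides, had no common direction. Gsta2 (chromosome 9, 78331018 to 78347192) had 196, 152 and 120.5 FPKM in knockout libraries 1, 2 and 3, against 172, 207 and 199 FPKM in wild-type libraries 1, 2 and 3. Knockout replicates 2 and 3 were the lowest, while knockout replicate 1 lay within the wild-type range. The log2 fold change of -0.32 ± 0.171 (SE) was the most negative of the set (limma adjusted p = 0.973), and its interval ran from -0.72 to 0.07. It was -0.50 without knockout replicate 1 and -0.15 without knockout replicate 3, where that of Hmox1 was lower, at -0.23. Gsta3 (chromosome 1, 21240565 to 21265575) had 60.1, 53.5 and 60.5 FPKM in knockout libraries 1, 2 and 3, against 55.9, 53.2 and 39.1 FPKM in wild-type libraries 1, 2 and 3, and its log2 fold change of 0.24 was the most positive (limma adjusted p = 0.980). That difference rested largely on wild-type replicate 3, the lowest library, and was 0.09 without it. Gsta4, whose product conjugates the lipid aldehyde 4-hydroxynonenal, had 18.4, 19.9 and 17.4 FPKM in knockout libraries 1, 2 and 3, against 19.01, 22.6 and 21.9 FPKM in wild-type libraries 1, 2 and 3. Wild-type replicate 1 lay between knockout replicates 1 and 2, and the log2 fold change was -0.18.

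Gsta1 and Gsta2 cannot be fully separated by short reads. Of the 50-base stretches of the Gsta2 transcript 44.8% also occur in Gsta1, and 64.2% occur in some other annotated gene. For Gsta1 the share found in any other gene is 89.7%, with 82.9% in Gm3776, which is outside the set, and 44.6% in Gsta2. The first 60 coding bases of both (chromosome 9), shown to make this plain, are identical.
Gsta2: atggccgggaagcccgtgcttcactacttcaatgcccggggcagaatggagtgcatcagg
Gsta1: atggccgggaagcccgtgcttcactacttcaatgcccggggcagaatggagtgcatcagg
Gsta1 was listed at 6.46, 1.96 and 3.67 FPKM in knockout libraries 1, 2 and 3, against 3.52, 6.31 and 4.40 FPKM in wild-type libraries 1, 2 and 3. It had the widest interval of all members, from -0.99 to 0.46, and the way shared reads were divided was not given in the sources used here.

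The pi class held 1 of the members whose groups lay apart. Gstp1 (chromosome 19, 4035411 to 4037912) had 206, 205 and 188 FPKM in knockout libraries 1, 2 and 3, against 186, 181 and 182 FPKM in wild-type libraries 1, 2 and 3. The lowest knockout value exceeded the highest wild-type value by a small step, and the mean was 199.8 ± 10.6 FPKM in knockout and 183 ± 2.54 FPKM in wild-type kidneys (SD, n = 3 each). The log2 fold change was 0.12 ± 0.0841 (SE) (limma adjusted p = 0.998, exact permutation p = 0.1). Its neighbour Gstp2 had 34.2, 30.1 and 22.5 FPKM in knockout libraries 1, 2 and 3, against 23.02, 27.00 and 35.9 FPKM in wild-type libraries 1, 2 and 3, with overlapping groups and a log2 fold change of 0.02. Gstp1 and Gstp2 differ at 12 of 630 coding bases (98.1% identity), and 62.3% of the 50-base stretches of the Gstp1 transcript also occur in Gstp2, while Gstp3 is 71.7% identical to Gstp1. The first 60 coding bases (chromosome 19) show this, with capitals where a base differs from that of Gstp1.
Gstp1: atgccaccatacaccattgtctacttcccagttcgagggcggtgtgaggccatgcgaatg
Gstp2: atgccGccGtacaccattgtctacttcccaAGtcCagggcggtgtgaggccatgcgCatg
Gstp3: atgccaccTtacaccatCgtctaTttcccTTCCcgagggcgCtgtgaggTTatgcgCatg
The split between Gstp1 and Gstp2 is therefore uncertain, and their summed level with Gstp3 was 241, 236 and 210.2 FPKM in knockout libraries 1, 2 and 3, against 209, 209 and 218 FPKM in wild-type libraries 1, 2 and 3. Knockout replicate 3 lay within the wild-type range of this sum.

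Theta class genes, which lie side by side on chromosome 10, held the other such member. Gstt3 (chromosome 10, 75774117 to 75781422) had 26.8, 26.6 and 26.6 FPKM in knockout libraries 1, 2 and 3, against 24.4, 25.8 and 22.7 FPKM in wild-type libraries 1, 2 and 3. The 3 knockout values lay close together and above all wild-type values, with a log2 fold change of 0.13 ± 0.0813 (SE) (limma adjusted p = 0.995). Of its 50-base stretches 26.0% also occur in Gm20441. Gstt1 and Gstt2, its neighbours, had overlapping groups and log2 fold changes of -0.03 and 0.08.

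The mu class, a cluster of 7 genes on chromosome 3, had no member with its groups apart. Gstm1 was the most abundant, with 252, 351 and 230.2 FPKM in knockout libraries 1, 2 and 3, against 247, 288 and 324 FPKM in wild-type libraries 1, 2 and 3. Knockout replicate 2 and wild-type replicate 3 were the highest, and the interval of its log2 fold change ran from -0.45 to 0.33. Of its 50-base stretches 23.1% occur in another annotated gene. Among the other mu genes tested, Gstm2, Gstm4, Gstm5 and Gstm7, the log2 fold changes lay between -0.14 (Gstm2) and 0.02 (Gstm4). Gstm5 averaged 75.5 ± 7.24 FPKM in knockout and 75.4 ± 5.50 FPKM in wild-type kidneys (SD, n = 3 each). Gstm3 and Gstm6 lay under 1 FPKM on average.

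Among the remaining transferases, Mgst1, a membrane-bound enzyme of the endoplasmic reticulum and the outer mitochondrial membrane, had 55.6, 57.1 and 50.7 FPKM in knockout libraries 1, 2 and 3, against 43.3, 49.95 and 50.97 FPKM in wild-type libraries 1, 2 and 3. Knockout replicate 3 lay below wild-type replicate 3, and the log2 fold change was 0.18 ± 0.0969 (SE) (limma adjusted p = 0.973), or 0.11 without wild-type replicate 1. Mgst3 had a log2 fold change of -0.08 with an interval from -0.48 to 0.32. Gsto1, an omega class enzyme with thiol transferase activity, had 27.9, 25.6 and 23.4 FPKM in knockout libraries 1, 2 and 3, against 27.5, 28.5 and 30.4 FPKM in wild-type libraries 1, 2 and 3. Knockout replicate 1 exceeded wild-type replicate 1, and the log2 fold change was -0.16. Gstz1, which isomerises maleylacetoacetate in tyrosine breakdown, and Gstk1, of mitochondria and peroxisomes, had log2 fold changes of 0.06 and -0.06. Gsto2, Gstp3, Gstt4 and Mgst2 averaged from 0.0355 to 0.457 FPKM and were not tested.

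1 library of each group stood high for many members. For 18 of the 35 tested members (51.4%), knockout replicate 2 was the highest knockout library and wild-type replicate 3 the highest wild-type library, a pattern that 31.9% of all tested genes showed. They included Gclc, Gclm, Gss, Gpx1, Gpx4, Gstm1, Gstm2, Nqo1 and Hmox1. For 4 members (11.4%, against 19.7% of all tested genes), Ggt1, Gsr, Gsta3 and Srxn1, both libraries were the lowest of their groups. Knockout replicate 2 (0.331) and wild-type replicate 3 (0.717) also had the highest loadings on the first principal component of all tested genes, which held 47.5% of the variance. Proximal tubule markers, the main site of many members, summed to 39673, 48247 and 36900.4 FPKM in knockout libraries 1, 2 and 3, against 43131, 43702 and 48013 FPKM in wild-type libraries 1, 2 and 3, highest in those libraries, but Kap, an androgen-regulated transcript, held most of each sum. The other 12 proximal tubule markers summed to 6459, 6104 and 6302 FPKM in knockout libraries 1, 2 and 3, against 6469, 6348 and 5733 FPKM in wild-type libraries 1, 2 and 3, lowest in those libraries. The part of these markers in the members' values was not tested. Without both libraries the members' median log2 fold change was -0.09, and 5 members lay apart above (background 6.55%) and 9 below (background 31.5%).

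**Figure D4:**
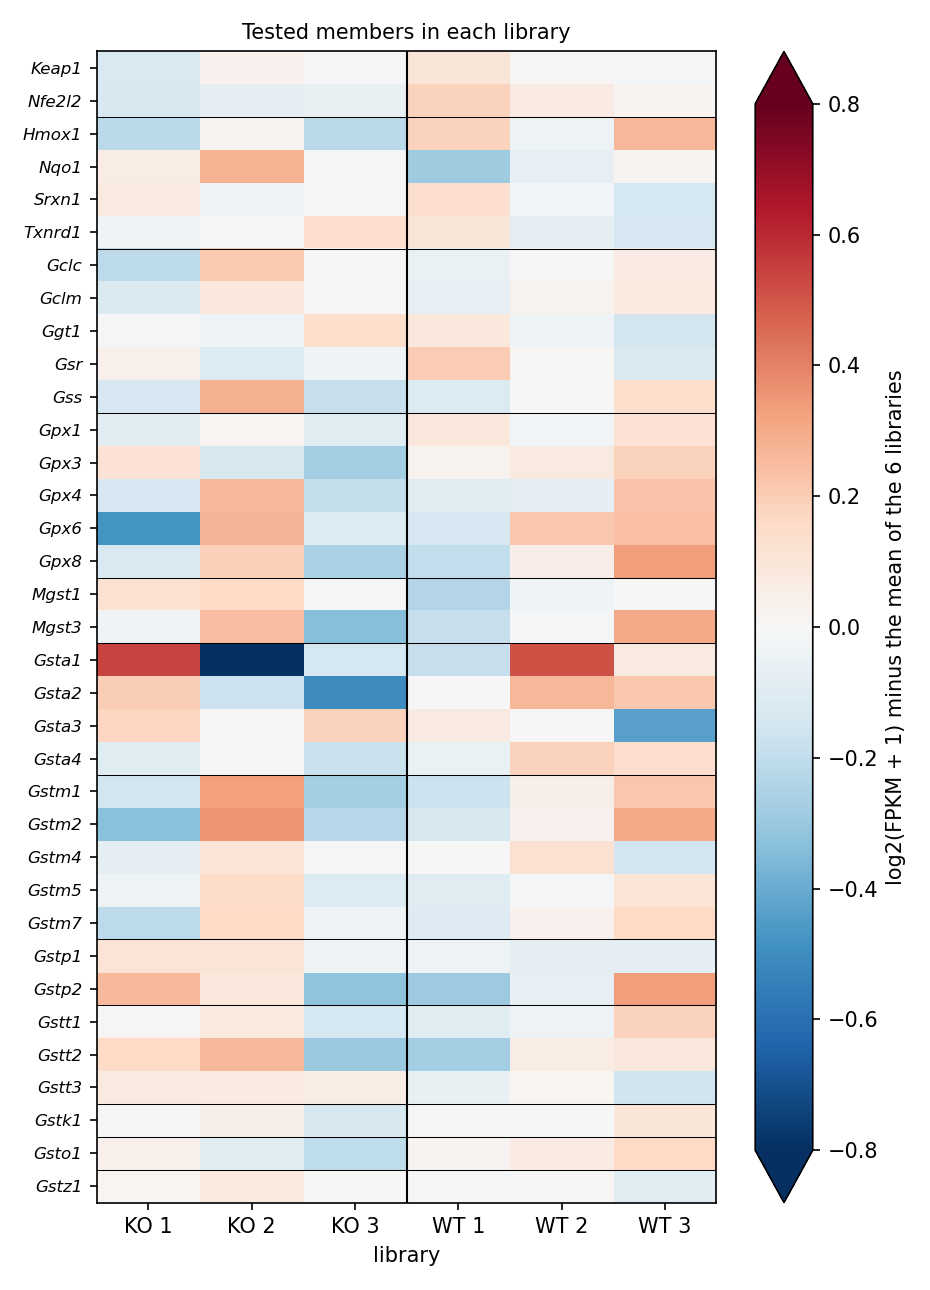
Level of the 35 tested members in each library, as log2(FPKM + 1) minus the gene's mean over the 6 libraries (colour), knockout left and wild-type right of the line, rows grouped by family. Among the genes highest in KO 2 and in WT 3 of their groups are Gss, Gpx4, Gstm1 and Gstm2.

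Other genes of the pathway did not pass either. Of 27 further NRF2 targets 21 were tested, and 10 lay above 0 and 11 below in log2 fold change, with a median of -0.02. None of them (0) was called, and 0 had groups apart, beside 2.01% of all tested genes apart above and 8.57% below. The smallest p among them was that of Osgin1, an oxidative stress-induced growth inhibitor, with 29.4, 31.4 and 44.6 FPKM in knockout libraries 1, 2 and 3, against 34.99, 47.7 and 68.3 FPKM in wild-type libraries 1, 2 and 3. Its log2 fold change was -0.48 ± 0.242 (SE) (limma adjusted p = 0.973), and the groups overlapped. Abcc2, an apical pump for glutathione conjugates, and Ptgr1, a prostaglandin reductase, had log2 fold changes of 0.28 and 0.12. Of the partners and repressors of NRF2, 10 of 12 were tested and 0 were called or apart. The small MAF proteins that pair with NRF2 on DNA went both ways, with log2 fold changes of 0.22 for Mafk, -0.15 for Mafg and 0.33 for Maff.

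Genes of glutathione supply and breakdown numbered 23, of which 21 were tested and 0 called, with a median log2 fold change of -0.01. Oplah, the 5-oxoprolinase that returns glutamate to the glutathione cycle, had 41.7, 43.3 and 47.6 FPKM in knockout libraries 1, 2 and 3, against 36.6, 39.2 and 33.5 FPKM in wild-type libraries 1, 2 and 3. All knockout values exceeded all wild-type values, and the log2 fold change was 0.27 ± 0.0950 (SE) (limma adjusted p = 0.942). Glrx, glutaredoxin, which uses glutathione to free protein thiols, had 25.9, 25.03 and 24.5 FPKM in knockout libraries 1, 2 and 3, against 22.5, 20.8 and 21.1 FPKM in wild-type libraries 1, 2 and 3. Its groups also lay apart, with a log2 fold change of 0.22 (limma adjusted p = 0.942). Anpep, the brush border aminopeptidase, was the third gene apart above (0.19), and Ggt5 the 1 gene apart below (-0.33). Ggt5 averaged 0.884 FPKM in knockout and 1.415 FPKM in wild-type kidneys, with wild-type replicate 3 highest at 2.157 FPKM. It thus reached the limit of 1 FPKM only through the wild-type group, and its place apart carries little weight. Over all tested genes 2.01% lay apart above and 8.57% below. Dpep1, the brush border dipeptidase that cleaves cysteinylglycine, had overlapping groups and a log2 fold change of -0.32.

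Of 27 thioredoxin, peroxiredoxin and other antioxidant genes 26 were tested, 13 above 0 and 13 below, with a median log2 fold change of -0.001 and 0 called. Prdx4, the peroxiredoxin of the endoplasmic reticulum, had 12.9, 12.2 and 10.6 FPKM in knockout libraries 1, 2 and 3, against 13.4, 14.02 and 14.1 FPKM in wild-type libraries 1, 2 and 3 and was the 1 gene of this list apart below, with a log2 fold change of -0.20 (limma adjusted p = 0.973). Cat, peroxisomal catalase, had 454, 472 and 469 FPKM in knockout libraries 1, 2 and 3, against 432, 453 and 412 FPKM in wild-type libraries 1, 2 and 3 and was the 1 gene apart above, with a log2 fold change of 0.11. The background was 2.01% of all tested genes apart above and 8.57% apart below. Msrb3 and Pon2 had log2 fold changes of -0.25 and 0.24 and overlapping groups.

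The libraries carried the markers of kidney, with all 13 proximal tubule and all 10 loop, distal tubule and collecting duct markers tested. Of the markers of other cell types, all 8 endothelial genes had a log2 fold change below 0, 5 of them with groups apart. Over all tested genes only 35.1% lay above 0, and 8.57% lay apart below (6.34% with library sums equalised and 5.1% with medians). The endothelial sum was 88.5, 97.5 and 78.6 FPKM in knockout libraries 1, 2 and 3, against 100.1, 107 and 136 FPKM in wild-type libraries 1, 2 and 3. Red cell genes summed to 420.2, 77.6 and 553 FPKM in knockout libraries 1, 2 and 3, against 52.1, 58.6 and 59.8 FPKM in wild-type libraries 1, 2 and 3, high in knockout replicates 1 and 3. No marker passed, and their part in the members' values was not tested. FPKM summed to between 381586 and 417123 per library, and between 20715 and 21277 genes were above 0.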

How the data were processed

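RNA of 6 kidney samples was sequenced by the authors, who deposited FPKM for every gene in 1 table. Per the labels' protocols RNA was column-purified and libraries were made with a SMARTer mRNA kit. The genome builds are GRCm38 and mm10, per the submitters' processing notes, with aligner and quantifier not given in the sources used here. Columns were matched to samples by the strain or gene letters and the number in their titles, and 0 columns were left over. Steps left by whole reads were sought in 2454 genes under 0.1 FPKM in 2 libraries: the commonest ratio (in log2 bins of 0.005) covered 0.57%, so read counts could not be recovered. No 2 libraries held equal values above 0 for any gene.

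Values were tested as log2(FPKM + 1), a scale that understates the change of low genes, with limma 3.58.1 in R 4.3.3. Group was the only term, the variance had a trend on the mean, tests were two-sided, and p-values were adjusted by Benjamini-Hochberg over 12174 genes with a mean of at least 1 FPKM, with a threshold of 0.05. Single genes were also tested by exact two-sided permutation over samples. The fit was tested on simulated data. Noise there was drawn independently for each gene and library, while the real libraries share a component over many genes. That test therefore does not show how the fit behaves on these libraries. Shared reads were gauged as the share of 50-base stretches of a gene's longest protein-coding GENCODE M21 transcript found in transcripts of other genes. Promoters are RefSeq's (GRCm38.p6), and coding starts are GENCODE M21's. Members are found by symbol alone, but the set and the lists were chosen with earlier results of these data known. Per-sample values are given for the 12 tested members with the smallest p, the 5 most abundant and 11 fixed ones, and of each pathway list the 3 smallest p are named. Gsta1, Gstp2, Anpep, Cat and Ggt5 were added after their values were seen. Alternatives were the pseudocount, the filter, the scaling, the variance model, a replicate block and left-out libraries. Figures were drawn with matplotlib 3.10.9.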

Additional observations from a re-analysis of the deposited data

How the results depend on the processing

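In all 16 alternatives 0 members were called. Over all genes the count was 0 except for 5 genes without knockout replicate 2 and 5 without that library and wild-type replicate 3 together, so it ranged from 0 to 5 when each library was left out. The members apart above, 2 in the main analysis, numbered 5 with library medians or sums equalised (14.3%, against 4.9% and 3.64% of all genes), 4 with quantiles equalised (11.4%, against 4.35%), 5 without both libraries (14.3%, against 6.55%), and 2 to 6 when each library was left out (5.71% to 17.1%, against 3.19% to 6.74%). The members apart below, 1 in the main analysis, numbered 0 with library sums equalised (against 6.34% of all genes), 9 without both libraries (25.7%, against 31.5%) and 1 to 8 when each library was left out (2.86% to 22.9%, against 11.7% to 23.9%); fewer samples make non-overlap easier by construction. The log2 fold changes of 16 of the 35 tested members crossed 0 in at least 1 alternative, none of them called: 7 members named by the rule, and Gpx8, Gsta1, Gstm4, Gstm5, Gstm7, Gstp2, Gstt1, Gstt2 and Mgst3. With library medians equalised those of Gclc, Gclm, Gpx4 and Gss were 0.0488, 0.0301, 0.0108 and 0.0342, with library sums equalised those of Gclc, Gclm and Gss were 0.0370, 0.0182 and 0.0223, and with quantiles equalised those of Gclc and Gss were 0.00770 and 0.00810. Without both libraries that of Srxn1 was -0.0255. When each library was left out, Gclc ranged from -0.114 to 0.0942, Gclm from -0.0753 to 0.0260, Gpx4 from -0.187 to 0.0563, Gsr from -0.138 to 0.0216, Gss from -0.171 to 0.0643, Gstm1 from -0.239 to 0.0636, and Srxn1 from -0.0481 to 0.0877. The cause was not tested. The directions of Nfe2l2, Hmox1, Nqo1, Gsta2, Gsta3, Gsta4, Gstp1, Gstt3, Mgst1 and Gsto1 were the same in all 16 alternatives. However, the filter, the variance model and the replicate block cannot change a log2 fold change, so those alternatives could not reverse a direction. These genes are also among the 12 tested members with the smallest p in the same data. The median log2 fold change of all genes, -0.0399 in the main analysis, was 0.0096 with library medians equalised, -0.00049 with sums and 0.0024 with quantiles. That of the members, -0.0458 in the main analysis, was 0.0108, -0.00105 and -0.0209 in the same order. The scaling thus moved these medians by amounts that are not small beside the medians themselves.

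The labels do not say whether the replicate numbers pair the samples. Deviations of same-numbered libraries from their group means correlated at 0.307, -0.215 and -0.321, and knockout replicate 2 correlated best with wild-type replicate 3 (0.55). Within a group the deviations sum to 0, and 1 component held 47.5% of the variance. These correlations therefore do not decide whether the numbers mark a pairing. With a replicate block 0 genes and 0 members were called, and 417 genes had an unadjusted p under 0.05, against 629 without it. Depth is unknown, and with 3 samples a group the exact test cannot give a p under 0.1.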
